A study of Mus musculus with 4 samples.

Results

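Usp18 and the enzymes that attach ISG15 to proteins were followed through interferon treatment of activated mouse CD4+ T cells. The set held Usp18, the E1 enzyme Uba7, the E2 enzyme Ube2l6 and the ligases Herc6 and Trim25. A gene was included when a row of the array was annotated to that gene alone, and all 5 genes had exactly 1 such row. In all, 19752 genes could be read in this way. The gene for the modifier itself, Isg15, had no row naming it alone, so its level is not given here.

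ISG15 is a small ubiquitin-like protein made in response to type I interferon. It is activated by the E1 Uba7, passed to the E2 Ube2l6 and joined to target proteins by a ligase, for which Herc6 is the main enzyme in mice and Trim25 a further one. Usp18 removes ISG15 from its targets, and it also binds the receptor chain Ifnar2 and dampens the signal of the type I interferon receptor.

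The cells came from spleens of male C57BL/6 mice aged 6 weeks, an inbred strain with no further allele named in the labels. CD4+ T cells were enriched by removing other cell types, activated for 48 h with beads against CD3 and CD28, and placed in IFNa, a type I interferon, at 100 U/ml. There were 2 baseline arrays of activated cells without IFNa, 1 array after 2 h of IFNa and 1 after 8 h. Whether the baseline pair came from separate animals or cultures is not in the labels. The p-values below set each difference against a spread taken from how far these 2 arrays differ, which may be technical. For each gene that spread was drawn strongly towards the one typical of all genes tested (prior degrees of freedom 7.46, residual 1). The model gave the single array at 2 h and at 8 h the same spread as the baseline pair. Untreated cells kept for 2 h or 8 h were not analysed here, and the effect of IFNa cannot be told apart from that of time in culture. JAK inhibitors are also mentioned, as present or absent, in 1 preparation label of the IFNa arrays and in no other label.

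Intensities are RMA values on a linear scale, and differences are on the log2 scale. The median intensity of an array ran from 176 to 199. Of 10 listed CD4 T cell markers 8 had a row, and all 8, Cd4 and Cd3e among them, lay above the array median on all 4 arrays. Of 7 B cell markers with a row 5 lay above the median on every array, led by Cd79b, with a summed intensity of 2769 and 2729 before IFNa, then 2611 at 2 h and 3332 at 8 h. The CD8 T and NK cell list summed to between 2417 and 2840, the myeloid and dendritic list to between 1019 and 1327 and the neutrophil and erythroid list to between 642 and 841. Bright enough to be tested were 8, 5, 4, 2 and 2 markers of these lists, in the order given. None of those passed the test in any comparison, and the other markers with a row were dim. The higher B cell sum at 8 h was not tested for a part in the results. In such bulk samples a change in the cells present and a change in RNA per cell cannot be told apart.

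All 5 genes were higher on both IFNa arrays than on either baseline array, but by very different amounts. The share of all genes that did the same was not counted. A small rise such as that of Uba7 at 2 h, ranked 2425th of 10699, was not unusual. Usp18 was 9.30-fold higher at 2 h, Trim25 nearly 3-fold, Ube2l6 and Herc6 a little under 2-fold, and Uba7 1.23-fold. At 8 h Herc6 had moved to second place at 3.87-fold, while Usp18, Trim25 and Ube2l6 stood slightly lower than at 2 h. The test was limma fitted to all 10699 genes tested, with Benjamini-Hochberg adjustment and a threshold of 0.05. Each member lay above the array median on all 4 arrays, so none was tested only because IFNa had raised it.

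Usp18, the enzyme that removes ISG15, had intensities of 328 and 399.5 before IFNa, rising to 3367 at 2 h and 2943 at 8 h. Both IFNa arrays thus stood far above the baseline pair, and the 2 IFNa values lay close together. The log2 difference from the baseline of 8.5 ± 0.20 (SD, n = 2) was 3.22 at 2 h (SE 0.22, adjusted p = 0.000459) and 3.02 at 8 h (SE 0.22, adjusted p = 0.000494). It ranked 3rd from the top among all genes tested at 2 h and 8th at 8 h. From 2 h to 8 h the log2 difference was −0.19 (95% interval −0.77 to 0.38, adjusted p = 0.604), so a fall between the times was not resolved.

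Uba7, the enzyme that activates ISG15, had intensities of 333.5 and 362 before IFNa, 427 after 2 h and 485 after 8 h. The IFNa values were above the baseline pair by a small margin. Its log2 difference was 0.30 at 2 h (95% interval −0.17 to 0.76, adjusted p = 0.585) and 0.48 at 8 h (0.02 to 0.95, adjusted p = 0.192). Neither passed the test. After quantile normalization the 8 h difference of 0.76 did (adjusted p = 0.00915), where 6.2% of all genes were called higher in place of 0.654%. In the other 8 test settings the 8 h difference did not pass, and with centred arrays it was 0.40. Uba7 ranked 2425th from the top at 2 h and 620th at 8 h, and the 95% interval at 8 h left room for a rise of up to 0.95.

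Ube2l6, the E2 that carries ISG15, had intensities of 298 and 308 before IFNa, 602 after 2 h and 484 after 8 h. The 2 baseline values nearly coincided, and the 2 h array was the highest. The log2 difference was 0.99 at 2 h (SE 0.20, adjusted p = 0.0688) and 0.68 at 8 h (SE 0.20, adjusted p = 0.0980), so both missed the threshold. Both passed after quantile normalization (0.86 and 0.95, adjusted p = 0.00819 and 0.00131), and the 2 h difference also with arrays centred on their medians (1.09, adjusted p = 0.00981).

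Herc6, a ligase of the HERC family, had intensities of 490.4 and 480.5 before IFNa, 894 after 2 h and 1878 after 8 h. It was the member whose 8 h array stood well above its 2 h array. The log2 difference was 0.88 at 2 h (SE 0.20), which missed the threshold at an adjusted p of 0.110 but passed after quantile normalization (0.73, adjusted p = 0.0329) and with centred arrays (0.98, adjusted p = 0.0314). At 8 h Herc6 rose by 1.95 (SE 0.20, adjusted p = 0.00258), and from 2 h to 8 h by 1.07 (SE 0.23, adjusted p = 0.0285). Its rank from the top went from 257th at 2 h to 20th at 8 h. With no filter on dim genes the step from 2 h to 8 h no longer passed (adjusted p = 0.0601).

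Trim25, a RING-type ligase that also modifies the RNA sensor RIG-I, had intensities of 939.6 and 965.6 before IFNa, 2733 after 2 h and 2158 after 8 h. The baseline values again lay close together and both IFNa values were more than 2-fold above them. Trim25 rose by 1.52 at 2 h (SE 0.20, adjusted p = 0.0105) and by 1.18 at 8 h (SE 0.20, adjusted p = 0.0227). The step from 2 h to 8 h was −0.34 (SE 0.23, adjusted p = 0.316). With no filter on dim genes the 8 h call was lost narrowly (adjusted p = 0.0507).

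**Figure D1:**
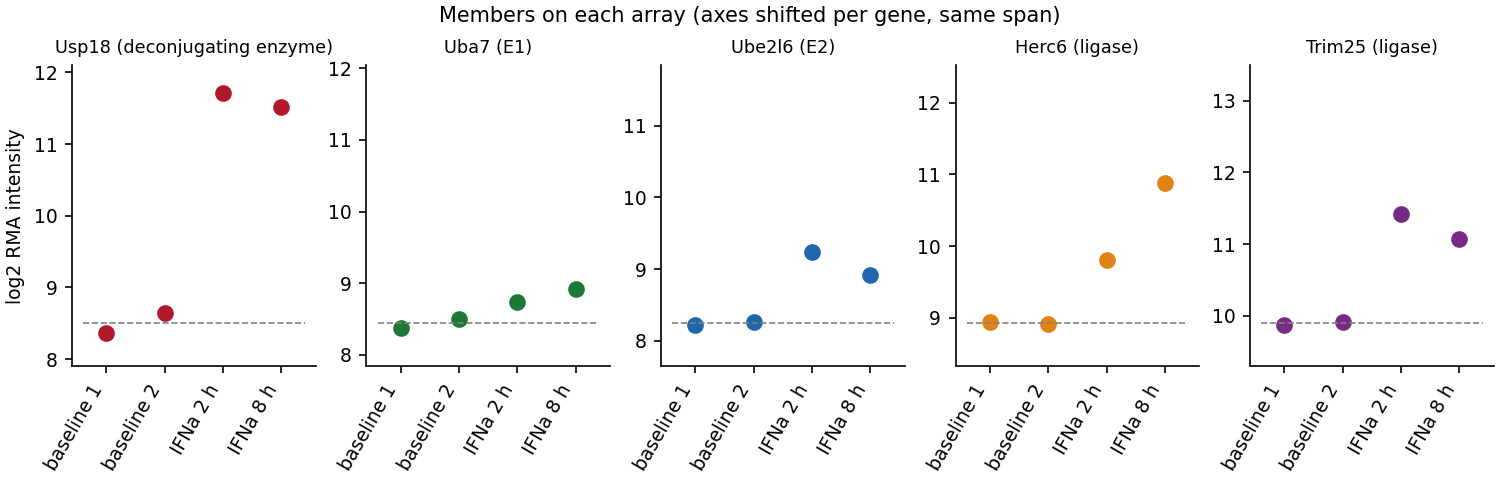
Log2 RMA intensity of the 5 genes on each of the 4 arrays (1 point per array; dashed line, mean of the 2 baseline arrays). The vertical axes start at different levels but span the same range, so the jump of Usp18 to 11.7 at 2 h, the late step of Herc6 to 10.9 at 8 h and the small shift of Uba7 can be compared.

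In counts, 2 of the 5 genes (Usp18 and Trim25) were called higher at 2 h, where 1.09% of all genes tested were, and 3 (with Herc6) at 8 h, where 0.654% were. Between 2 h and 8 h 1 member, Herc6, was called higher, against 1.46% of all genes. At least 2-fold higher, with no test, were the same 2 genes at 2 h (1.77% of all genes) and the same 3 at 8 h (0.57%). The members were chosen with earlier results of these data known, so these contrasts with all genes may partly reflect that choice. The shares of all genes called depended on the scaling. After quantile normalization 3.1% of genes were called higher and 1.02% lower at 2 h, 6.2% higher and 8.41% lower at 8 h, and 9.25% higher and 12.3% lower from 2 h to 8 h. The members' counts under that scaling were 4 higher at 2 h, 5 at 8 h and 1 from 2 h to 8 h. The median difference of the 5 was 0.99 at 2 h and 1.18 at 8 h, beside a median over all genes of 0.06 and −0.16. That overall median depended on the scaling, at −0.01 and 0.00 after quantile normalization and 0.15 and −0.24 with centred arrays. All 5 genes kept a positive difference from baseline at both times under these scalings. For the step from 2 h to 8 h the signs of Usp18 (0.016) and Ube2l6 (0.089) turned after quantile normalization, while Herc6 stayed higher (1.39, and 0.89 with centred arrays). When all rows of the array were tested, named or not, none of the 5 passed in any comparison.

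**Figure D2:**
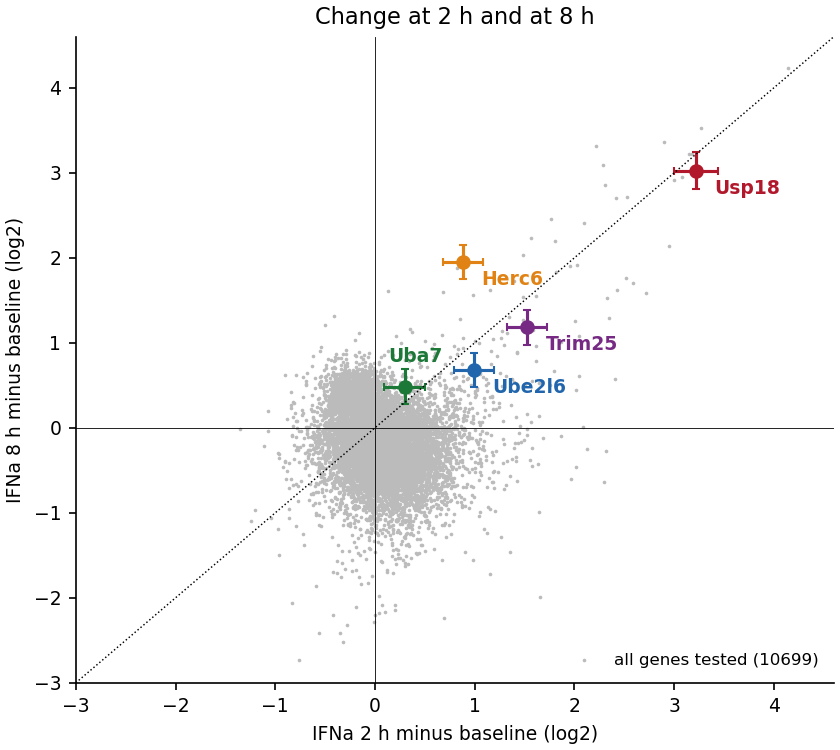
Log2 difference from baseline at 2 h (horizontal) and at 8 h (vertical) for the 10699 genes tested (grey) and the 5 members (coloured, bars ± 1 moderated SE; dotted line, equal change). Both axes share the baseline arrays. Herc6 lies above the dotted line (0.88 and 1.95), and Usp18, Trim25 and Ube2l6 lie below it.

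The change of the deconjugating enzyme was then set against that of each conjugating enzyme, array by array, as the difference between the 2 log2 changes from baseline. At 2 h the Usp18 change exceeded that of Uba7 by 2.92, of Herc6 by 2.34, of Ube2l6 by 2.23 and of Trim25 by 1.70. At 8 h the excess was 2.54 over Uba7, 2.35 over Ube2l6, 1.84 over Trim25 and 1.07 over Herc6. The gap was therefore widest to the E1 at both times, and narrowest to Trim25 at 2 h and to Herc6 at 8 h. Against the mean of the 4 conjugating enzymes the excess was 2.29 at 2 h and 1.95 at 8 h. The same quantity differed by 0.24 between the 2 baseline arrays, Usp18 being relatively higher on the second. These are 4 pairs with 1 array per IFNa time, described without a test, and they compare changes and not the amounts of the proteins or transcripts.

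**Figure D3:**
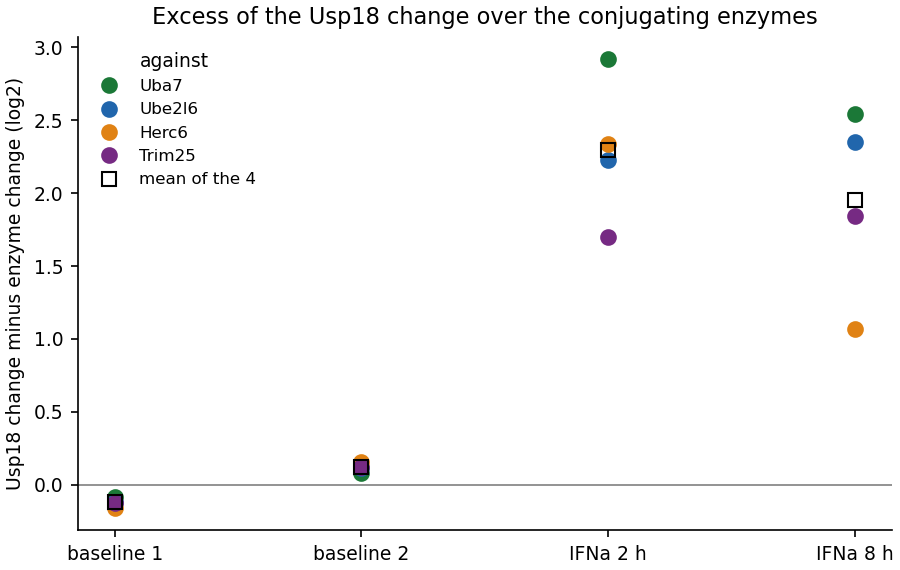
Log2 change of Usp18 from its baseline mean minus the change of each conjugating enzyme, on each array (circles; open square, against the mean of the 4 enzymes). All values lie within 0.16 of 0 on the baseline arrays and between 1.07 and 2.92 on the IFNa arrays, with the lowest point at 8 h belonging to Herc6.

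Relatives of each enzyme in its wider class were read beside it. Of 9 listed E1 enzymes for ubiquitin and its relatives 6 were tested, with medians of −0.03 at 2 h and −0.34 at 8 h. None was called either way, beside 1.1% of all genes at 2 h, 4% at 8 h and 12.3% from 2 h to 8 h. The list is small, so an absence of calls says little. Sae1, part of the SUMO E1, stood above Uba7 at 2 h (0.46, SE 0.27, adjusted p = 0.525), whereas at 8 h all 6 relatives lay below 0, the highest being Mocs3 (−0.02, SE 0.22). The E1 of the ISG15 pathway was thus not the highest of its class at 2 h and was at 8 h, with no call at either time.

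Of 35 other E2 enzymes 33 were tested. None exceeded Ube2l6 at 2 h or 8 h, where the highest were Ube2z, an E2 for ubiquitin (0.65, SE 0.29, adjusted p = 0.427), and Ube2h (0.38, SE 0.21, adjusted p = 0.304). One E2 was called lower at 8 h, where 3.35% of all genes were: Ube2e2, an E2 of the ubiquitin system (−1.0, SE 0.21, adjusted p = 0.0418). From 2 h to 8 h 4 of the 33 were called lower, where 10.8% of all genes were, led by Ube2e2 (−1.18, SE 0.24, adjusted p = 0.0251) and Ube2q2 (−1.13, SE 0.24, adjusted p = 0.0268) and followed by Ube2g2 (−1.0) and Ube2v2 (−0.89). The median of the 33 was 0.18 at 2 h and −0.23 at 8 h.

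The other 4 HERC genes were tested and had medians of 0.03 at 2 h and −0.22 at 8 h. There was no call among these few genes, beside 1.1% of all genes at 2 h, 4% at 8 h and 12.3% between the times. Herc3, a small HERC ligase like Herc6, stood at 0.69 at 2 h (SE 0.21, adjusted p = 0.249) and 0.26 at 8 h (SE 0.21), and it moved by −0.43 from 2 h to 8 h (SE 0.24, adjusted p = 0.232). At 8 h the other 3 lay below 0, down to Herc1 (−0.41, SE 0.21).

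Among 41 tested genes of 51 listed with the USP deubiquitinases, the medians were 0.16 at 2 h and −0.34 at 8 h. None was called higher, where 1.09% of all genes were at 2 h, 0.654% at 8 h and 1.46% from 2 h to 8 h. Usp6nl stood highest at 2 h (1.13, SE 0.21, adjusted p = 0.0541). It is named for a likeness to USP6 but acts as a Rab GTPase-activating protein, and the next was Usp38 (0.71, SE 0.22, adjusted p = 0.247). At 8 h Usp38 was highest at 0.32 (SE 0.22) and Usp46 was called lower (−1.21, SE 0.23, adjusted p = 0.0330), 1 of 41 beside 3.35% of all genes. From 2 h to 8 h 8 of the 41 were called lower, beside 10.8% of all genes, led by Usp6nl (−2.06, SE 0.25, adjusted p = 0.00790) and the nucleolar Usp36 (−1.57, SE 0.26, adjusted p = 0.0145), then Usp10 (−1.42) and Uspl1 (−1.33). Usp18 stood apart from the tested genes of this list by more than 2 log2 units at each IFNa time.

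**Figure D4:**
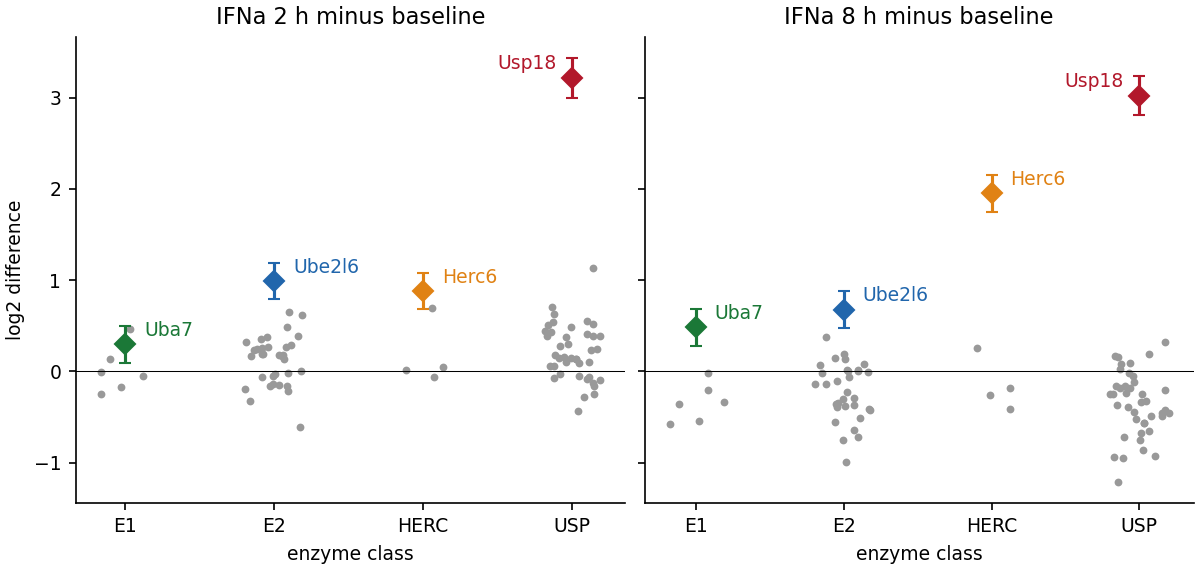
Log2 difference from baseline at 2 h (left) and 8 h (right) of Uba7, Ube2l6, Herc6 and Usp18 (diamonds, ± 1 moderated SE) and of the tested relatives in each class (grey points, spread sideways for legibility). Usp18 at 3.22 and 3.02 lies above every tested gene of the USP list, and Uba7 at 2 h lies below 1 of its 6 tested relatives.

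Further genes tied to the pathway were described from lists chosen with earlier results of these data known. Stat2, the signal transducer that brings Usp18 to the receptor, rose by 1.42 at 2 h (SE 0.23, adjusted p = 0.0261) and stood at 0.88 at 8 h (SE 0.23, adjusted p = 0.0725). It was the 1 call at 2 h among 7 tested partners of the pathway, where 1.09% of all genes were called higher. That list also holds Ube2e2, called lower above. Ifnar1, the other receptor chain, stood at 0.90 (SE 0.22, adjusted p = 0.138) and 0.24, and Ifnar2, the chain that Usp18 binds, at 0.04 and 0.11 (SE 0.20 for both). The ligase Arih1, also linked to ISG15, stood at 0.03 and −0.19, and Skp2, part of a ligase that targets Usp18, at −0.01 and −0.20 (SE 0.20 to 0.21). Of 9 tested modifiers related to ISG15, none was called at 2 h or 8 h, beside 1.1% and 4% of all genes. Sumo3 was called lower from 2 h to 8 h (−0.94, SE 0.23, adjusted p = 0.0385), where 10.8% of all genes were.

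Of 13 tested partners of Trim25 or reported targets of ISG15, 5 rose at 2 h, where 1.09% of all genes did. The same 5 rose at 8 h, where 0.654% did. None was called from 2 h to 8 h, beside 12.3% of all genes. The 2 comparisons with baseline share its arrays, and the list medians were 0.37 at 2 h and 0.14 at 8 h. This list too was chosen with earlier results of these data known, so its contrast with all genes may partly reflect that choice. The 5 were the RNA sensors Ddx58, which encodes RIG-I (1.33 and 1.12, SE 0.20), and Ifih1 (2.43 and 1.62, SE 0.21), the RNA-dependent kinase Eif2ak2 (2.33 and 1.52, SE 0.20), the GTPase Mx1 (2.58 and 1.71, SE 0.22) and the RNA-binding Ifit1 (3.0 and 2.92, SE 0.21). Their adjusted p ran from 0.000459 to 0.0183 at 2 h and from 0.000494 to 0.0258 at 8 h. Zc3hav1, a zinc finger antiviral protein that works with Trim25, stood at 0.54 and 0.41 (SE 0.20), Mavs at 0.01 and −0.33 (SE 0.28), and Irf3 at −0.22 and −0.17 (SE 0.20).

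The genes whose pattern was most like each member were ranked by Euclidean distance over the 4 arrays, after subtraction of each gene's baseline mean. The distance was not scaled by the size of a gene's change, so distances of different members cannot be compared. Nearest to Usp18 were Irf7 (distance 0.27), Rsad2 (0.40), Ifit1 (0.41), Oasl2 (0.41) and Ifi208 (0.48). Herc6 had 1 close neighbour, Ifi209 (0.09), with differences of 0.82 at 2 h and 1.88 at 8 h, and then Samd9l (0.43) and Ifi203 (0.50). Trim25 lay nearest to Ddx58 (0.21), Trim12c (0.22) and Helz2 (0.23), and Ube2l6 to Dtx3l (0.06), Ahnak (0.12) and Zup1 (0.13). Uba7 lay nearest to Sfn (0.05), Gna15 (0.06) and Icam2 (0.06), none of which passed the test at 2 h or 8 h.

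The 10 genes next to the members on the chromosome were read as well, taking on each side the nearest protein-coding gene with a row of its own, a choice made after the data were seen. Of these, 7 were tested and none was called at 2 h or 8 h, where 1.1% and 4% of all genes were. Beside Usp18 on chromosome 6, Tuba8 stood at 0.08 and 0.59 (adjusted p = 0.901 and 0.132), and Slc6a13 was dim. Beside Herc6, also on chromosome 6, Ppm1k stood at −0.03 and −0.23 and Pyurf at −0.24 and −0.40. Beside Trim25 on chromosome 11, Coil stood at 0.39 and −0.28 and Dgke at 0.58 and −0.60. No tested neighbour of Usp18 (Tuba8 alone), Herc6 or Trim25 was called against baseline at 2 h or 8 h. Calls for the step from 2 h to 8 h were not read for these neighbours. With 7 genes and shares this small, an absence of calls says little.

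Promoter sequences of 4 members were taken from RefSeq (GRCm38.p6), and Usp18 had no entry. Of these, Trim25 and Herc6 (at 8 h, not 2 h) had a call against baseline, and Uba7 and Ube2l6 had none. The 100 bases directly before the annotated start of each are shown so that they can be compared letter by letter. They lie on the plus strand at chr9:107975467-107975566 for Uba7, chr2:84798728-84798827 for Ube2l6, chr6:57580892-57580991 for Herc6 and chr11:88999303-88999402 for Trim25. Capitals mark a match to AAANNGAAA on either strand, a short form of the interferon-stimulated response element (ISRE), a sequence found in many interferon-induced genes.
Uba7: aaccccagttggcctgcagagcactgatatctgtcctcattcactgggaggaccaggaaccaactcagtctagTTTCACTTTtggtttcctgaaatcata
Ube2l6: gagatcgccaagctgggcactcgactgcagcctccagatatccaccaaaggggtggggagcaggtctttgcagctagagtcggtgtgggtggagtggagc
Herc6: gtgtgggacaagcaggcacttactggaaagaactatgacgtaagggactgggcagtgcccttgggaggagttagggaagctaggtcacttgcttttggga
Trim25: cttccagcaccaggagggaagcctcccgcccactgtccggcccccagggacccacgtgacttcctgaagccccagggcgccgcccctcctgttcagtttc

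The full ISRE core, GAAA repeated after a gap of 2 bases of any kind, was found on either strand in none of the 4 windows of 300 bases around the start, and in 3.44% of all 32851 promoter windows in the table. The site TTCNNNGAA, which reads the same on both strands, was likewise in none of the 4, against 8.3% of all. The shorter AAANNGAAA, added after the data were seen and contained in every full core, was in 1 of the 4, Uba7, ending 18 bases before the start, against 10.6% of all. Uba7 did not pass the main test, but did at 8 h after quantile normalization. With 4 windows and none for Usp18, a relation between match and rise cannot be judged. A match is a description of these letters, and an absent match says only that they are not in this window. The base composition of the printed windows differed too, with 47% G or C in Uba7, 61% in Ube2l6, 53% in Herc6 and 69% in Trim25.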

How the data were processed

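Values were deposited as linear intensity, 1 sample per array. The submitters' processing notes name RMA and Affymetrix Power Tools without versions. RMA as usually run equalises the arrays' distributions, but those of the deposited values differed, with upper quartiles of 669 and 730 for the baseline arrays, 769 for 2 h and 574 for 8 h. The set of arrays processed jointly is not given in the sources used. Signal from unspecific binding may remain and was not measured here, so folds of dim genes may be understated.

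Log2 was taken with no pseudocount. Of 24922 rows, 21425 carried 1 gene symbol in the platform annotation, and rows with several (1399) or none (2098) were left out. Gene identifiers looked up in RefSeq (GRCm38.p6) changed 0 symbols, and 78 had no match. The row with the highest mean stood for a gene, and genes brighter than the median row of any array were tested (10699; 9053 were dim). Samples were grouped by their titles. Limma 3.58.1 in R 4.3.3 fitted a mean per group, with 1 residual degree of freedom per gene, from the baseline arrays, and a prior of 7.46. The 3 comparisons were two-sided. The number of arrays limits the precision. The scripts were tested on simulated data. The members and gene lists were chosen with earlier results of these data known. The rule for named genes took the members, Isg15, the nearest genes in pattern (5 for Usp18, 3 for the others) and, per list, up to 4 called genes per comparison or else the 2 largest changes. Not every gene it takes is named, and the fifth called partner of Trim25 or ISG15 and the uncalled genes of lists with calls were added after their values were seen.

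Alternatives were quantile normalization, centring, other filters and priors, averaging a gene's rows, testing all rows, an adjusted p under 0.1 and leaving out each baseline array.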

Additional observations from a re-analysis of the deposited data

Results flagged for a closer look

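Herc6 differed between the 2 IFNa times. Its log2 difference between 8 h and 2 h was 1.07 (SE 0.23, limma adjusted p = 0.0285, 1 array against 1), with adjusted p from 6.49e-05 to 0.239 over the other settings. The difference itself ran from 0.89 to 1.39 over these settings.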

How the results depend on the processing

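No paired analysis was made, as the labels name no pairing beyond replicate numbers in the titles and each IFNa time has 1 array. The number of called genes at 2 h, 118, became 441 after quantile normalization, 298 with centred arrays, 188 at an adjusted p under 0.1 and 0 with all rows tested. At 8 h the 428 became 1563, 794, 1031 and 0 in that order, 143 with no filter and 255 with the filter at the 60th percentile. Between 8 h and 2 h the 1311 became 2306, 2387, 2999 and 0, and 415 with no filter. With all rows tested, limma gave an unadjusted p under 0.05 for 1141 rows at 2 h, 2883 at 8 h and 4971 between the times. The split of higher to lower calls, 117 to 1, 70 to 358 and 156 to 1155, was 332 to 109, 663 to 900 and 990 to 1316 after quantile normalization and 291 to 7, 70 to 724 and 72 to 2315 with centred arrays. Members called higher at 2 h, 2 of 5, became 4 after quantile normalization (3.1% of all genes in place of 1.09%), 4 with centred arrays (2.72%) and 0 with all rows tested. At 8 h the 3 became 5 after quantile normalization, where 6.2% of all genes were called higher in place of 0.654%, and 0 with all rows tested. Between 8 h and 2 h the 1 became 0 with no filter and 0 with all rows tested. The cause was not tested. Without one baseline array there was no test. Members at least 2-fold higher then numbered 2 to 3 at 2 h and 3 at 8 h, and the Usp18 excess over the 4 enzymes ran from 2.17 to 2.41 at 2 h and from 1.83 to 2.07 at 8 h. From 2 h to 8 h quantile normalization turned Usp18 to 0.016 and Ube2l6 to 0.089. Of the 3 genes nearest in pattern to Uba7, Ube2l6 and Trim25, 1 each was shared after quantile normalization.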
